A study of Arabidopsis thaliana with 124 samples.

Results

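The 10 genes described here encode the storage proteins and an oil body protein of the Arabidopsis thaliana seed, together with a pair of regulators of the embryo. They are the cruciferin genes CRA1 (AT5G44120), CRB (AT1G03880, listed as CRU2 in the gene table) and CRU3 (AT4G28520), the 2S albumin genes SESA1 to SESA4 (AT4G27140, AT4G27150, AT4G27160 and AT4G27170), the oleosin gene OLEO1 (AT4G25140), and the regulators LEC1 (AT1G21970) and FUS3 (AT3G26790). They were chosen by gene code, and all 10 of them were found among 27444 protein-coding genes of chromosomes 1 to 5. A factor was counted at a gene where the summit of 1 of its ChIP-seq peaks lay inside the gene or within 2000 bp of it.

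ChIP-seq of 21 transcription factors was done on whole seedlings of the accession Col-0, in lines that each carry 1 factor fused to the fluorescent protein YPet by recombineering, a method that tags a gene inside a large cloned piece of the genome. All seedlings were 3 days old and grown in the dark, and they received either 10 µM of the hormone abscisic acid (ABA) or ethanol alone (mock) for 4 h before precipitation with an antibody against GFP. The tagged lines gave 122 libraries: each treatment has 3 of them for 19 of the factors, while ANAC102 and ZAT6 have 2. Another 2 libraries, from untagged Col-0 seedlings labelled as ABA-treated, are the antibody control. The files are 42 peak lists of 15 to 18096 peaks, each pooling the replicates of 1 factor and treatment, so a peak has no replicate error and the factor is the unit of the tests. Read depth is unknown, because the lists hold no read counts. In whole seedlings, binding in few cells and weak binding in many cannot be told apart.

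Cruciferins are globulins and 2S albumins are small, sulphur-rich proteins, and both are laid down in vacuoles of the maturing seed and broken down after germination. Oleosins coat the oil bodies of the seed. LEC1, a subunit of the NF-Y complex, and FUS3, a B3 domain protein, switch on the maturation programme in the embryo together with ABI3 and LEC2. ABA promotes maturation, and bZIP proteins bind promoters of storage genes at elements with an ACGT core. In seedlings this programme is normally shut off, with the help of the VAL proteins, the remodeller PICKLE and the Polycomb group. RNA was not measured in these samples, so nothing here says whether a gene was expressed.

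By the 2000 bp rule the genes fell into well-covered and nearly empty ones. The 3 cruciferin genes and OLEO1 had 12 to 16 factors under ABA and 9 to 13 under mock. LEC1, FUS3 and the 4 albumin genes had 0 to 4 factors under ABA and 0 to 3 under mock. LEC1 depended on the rule: with any base of a peak within 2000 bp in place of the summit, it had 9 factors under ABA and 2 under mock. The split itself depended on the rule. With each summit given to its nearest gene alone, CRA1 had 4 factors under ABA and 3 under mock. CRB and CRU3 then had 2 and 2, OLEO1 1 and 0, LEC1 4 and 2, and FUS3 2 and 1. Within 1000 bp CRB had 2 and 2 and CRU3 3 and 3. At that distance CRA1 had 14 and 7, and OLEO1 15 and 9. SESA3 and SESA4 had no peak in any of the 42 lists, and SESA2 had none under mock. At least 1 factor was thus found at 8 of the 10 genes under ABA and at 7 under mock, where 87.3% and 82.1% of all protein-coding genes had one. Of the 210 possible pairs of factor and gene, 67 (31.9%) were found under ABA and 49 (23.3%) under mock, against 43.1% and 30.1% of pairs over all genes. Their median number of factors was 3.5 under ABA and 2.5 under mock, and over all genes it was 9 and 5.

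**Figure D1:**
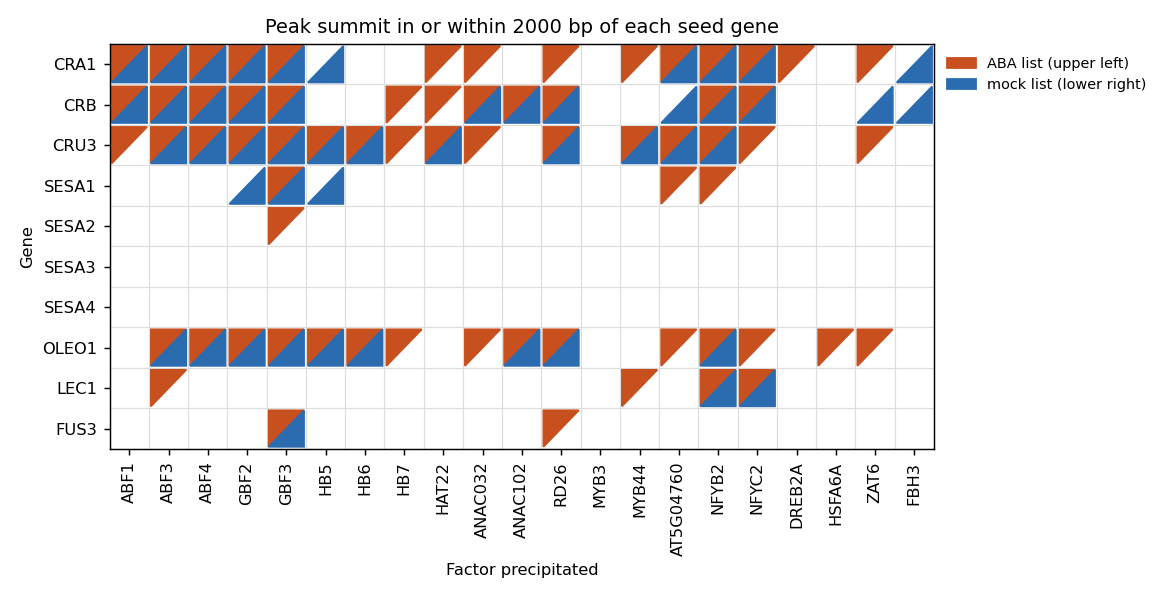
The matrix shows, for each of the 10 seed genes (rows) and 21 factors (columns), whether a peak summit lay in or within 2000 bp of the gene in the ABA list (upper left triangle) and in the mock list (lower right triangle). CRA1, CRB, CRU3 and OLEO1 are filled for 9 to 16 factors per treatment, and SESA3 and SESA4 are empty.

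**Figure D2:**
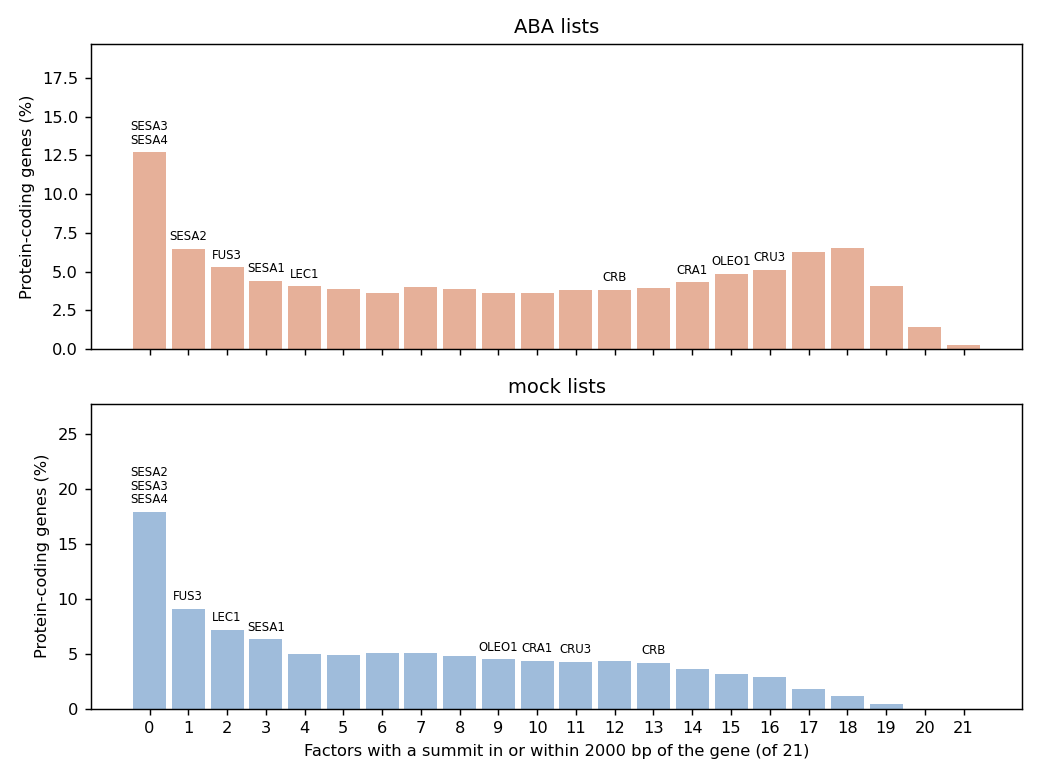
Bars give the percentage of 27444 protein-coding genes with each number of factors (of 21) under ABA and under mock, and the names mark where the 10 seed genes fall. LEC1, FUS3 and the albumin genes stand at 0 to 4 factors and the other 4 genes at 9 to 16.

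At CRA1, which encodes a cruciferin subunit, 14 factors were found under ABA and 10 under mock, and 67.1% and 69.7% of all genes had fewer. Summits that lay within 150 bp of each other were joined into sites. The main site of CRA1 held 20 summits in a stretch of 133 bp, between 277 and 409 bp from the gene on the side of lower coordinates (chromosome 5, 17755829 to 17755961, TAIR10, 1-based). The gene table gives no strand, so sides are named by coordinate and not as promoter or end. The site also lay 61 to 193 bp from the neighbouring gene ABCI21, and was closer to it than to CRA1. All 5 bZIP factors were found there in both treatments. Fold enrichment below is the authors' value per peak, and a rank is the peak's place in its own list by −log10 p.

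The bZIP peaks at this site stood near the top of their lists. GBF2, a G-box binding factor, had a fold enrichment of 3.97 under ABA (rank 129 of 10724 peaks) and 3.67 under mock (rank 539 of 10329). ABF3, a bZIP factor that carries the ABA response, had 3.27 under ABA (rank 303 of 11273) and 3.30 under mock (rank 184 of 9243). GBF3 had 4.79 under ABA (rank 302 of 16320) and 4.76 under mock (rank 390 of 14247). The lowest of these 6 ranks was at 5.22% of the list length. ABF4 was at rank 401 of 8774 under ABA and 299 of 6267 under mock. ABF1 was at rank 413 of 8512 under ABA, with a fold enrichment of 4.15, and at rank 831 of 2494 under mock with 2.89, so its mock peak was further down its list. Ranks in lists of different length show no change by themselves.

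The NF-Y subunits were also at the main CRA1 site in both treatments. NFYB2 had a fold enrichment of 8.79 under ABA (−log10 p of 158.16) and 6.52 under mock (128.54), and NFYC2 had 4.62 (98.79) and 4.21 (77.45). LEC1 is itself a B subunit of NF-Y, the class to which NFYB2 belongs. A further 6 factors had a summit at this site in the ABA list alone. They were ZAT6 with a fold enrichment of 3.34, the dehydration factor DREB2A with 3.53 (rank 259 of 1517), the NAC proteins RD26 with 2.21 and ANAC032 with 2.18, MYB44 with 2.12 and the MYB-related factor AT5G04760 with 2.03. The mock list of DREB2A holds 15 peaks in all and that of ANAC032 holds 801. HAT22 had a single weak peak 442 bp beyond the other end of CRA1 under ABA (1.96, rank 9137 of 9465). HB5 and FBH3 were found in the mock list alone, at a site 1891 to 1956 bp from that end which lay closer to FLA13. AT5G04760 had a mock summit at that site too (2.04), so it was counted at CRA1 in both treatments.

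CRB had 12 factors under ABA and 13 under mock, and by the 2000 bp rule was the single gene of the 10 with fewer under ABA. Over all genes 3.67% had fewer under ABA and 75.5% had more. The net change of CRB (ABA minus mock) was 0 within 1000 bp, within 500 bp and with a −log10 p of at least 32. It was also 0 with the nearest gene alone and without FBH3, DREB2A and HSFA6A. In the other alternatives it was below 0, and -4 with lists of equal length. SESA1 had -2 within 500 bp and with the nearest gene alone. All 13 mock factors and all 12 ABA factors shared 1 site of 123 bp (chromosome 1, 984022 to 984144), 1607 to 1729 bp from CRB and 478 to 600 bp from FLA9, a fasciclin-like arabinogalactan protein gene. This site is therefore nearer to FLA9 than to the cruciferin gene. NFYB2 had a fold enrichment of 9.75 there under ABA (rank 1341 of 18096) and 6.14 under mock (rank 2294 of 14814). GBF3 had 4.76 in both lists, at rank 487 of 16320 and 390 of 14247. RD26 stood at rank 393 of 7651 under mock, with 3.20, and at 4050 of 11825 under ABA, with 2.31. FBH3, a bHLH protein, had its peak under mock alone (2.55, rank 51 of 1084), and its ABA list holds 194 peaks.

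The other 4 factors found at CRB in 1 treatment had peaks on both sides of the 2000 bp limit. Peaks of HB7 and HAT22 counted under ABA alone overlapped a mock peak of the same factor whose summit lay 2143 and 2201 bp from the gene. Peaks of AT5G04760 and ZAT6 counted under mock alone overlapped an ABA peak with its summit at 2062 and 2128 bp. FBH3 was the only factor at CRB found in 1 treatment without an overlapping peak in the other list. At the other genes, none of the peaks of a pair found in 1 treatment overlapped a peak of that factor in the other. Over the 10 genes, 2 of 26 such peaks under ABA and 2 of 7 under mock had an overlapping peak, all 4 of them at CRB.

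CRU3 had 16 factors under ABA, the most of the 10 genes, and 11 under mock, where CRB had more, and 76.3% and 74.1% of all genes had fewer. Every one of those factors had a summit in 1 site of 116 bp (chromosome 4, 14091438 to 14091553), 1642 to 1757 bp beyond the end of higher coordinates. All 27 summits of this site lay inside the next gene, NAC074, so they are counted for CRU3 through distance alone. Their fold enrichments ran from 1.75 (ABF4 under mock) to 3.32 (NFYB2 under ABA). The highest rank at this site was that of RD26 under mock, at 1510 of 7651. Closer to CRU3, GBF2 and GBF3 had summits 59 to 90 bp from the gene on the lower side in both treatments. GBF3 had a fold enrichment of 3.84 there under ABA and 3.30 under mock, and GBF2 had 2.16 and 2.0. NFYB2 had a summit 579 bp away under ABA (4.99) and 585 bp away under mock (2.89), nearer to the prohibitin gene PHB1.

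**Figure D3:**
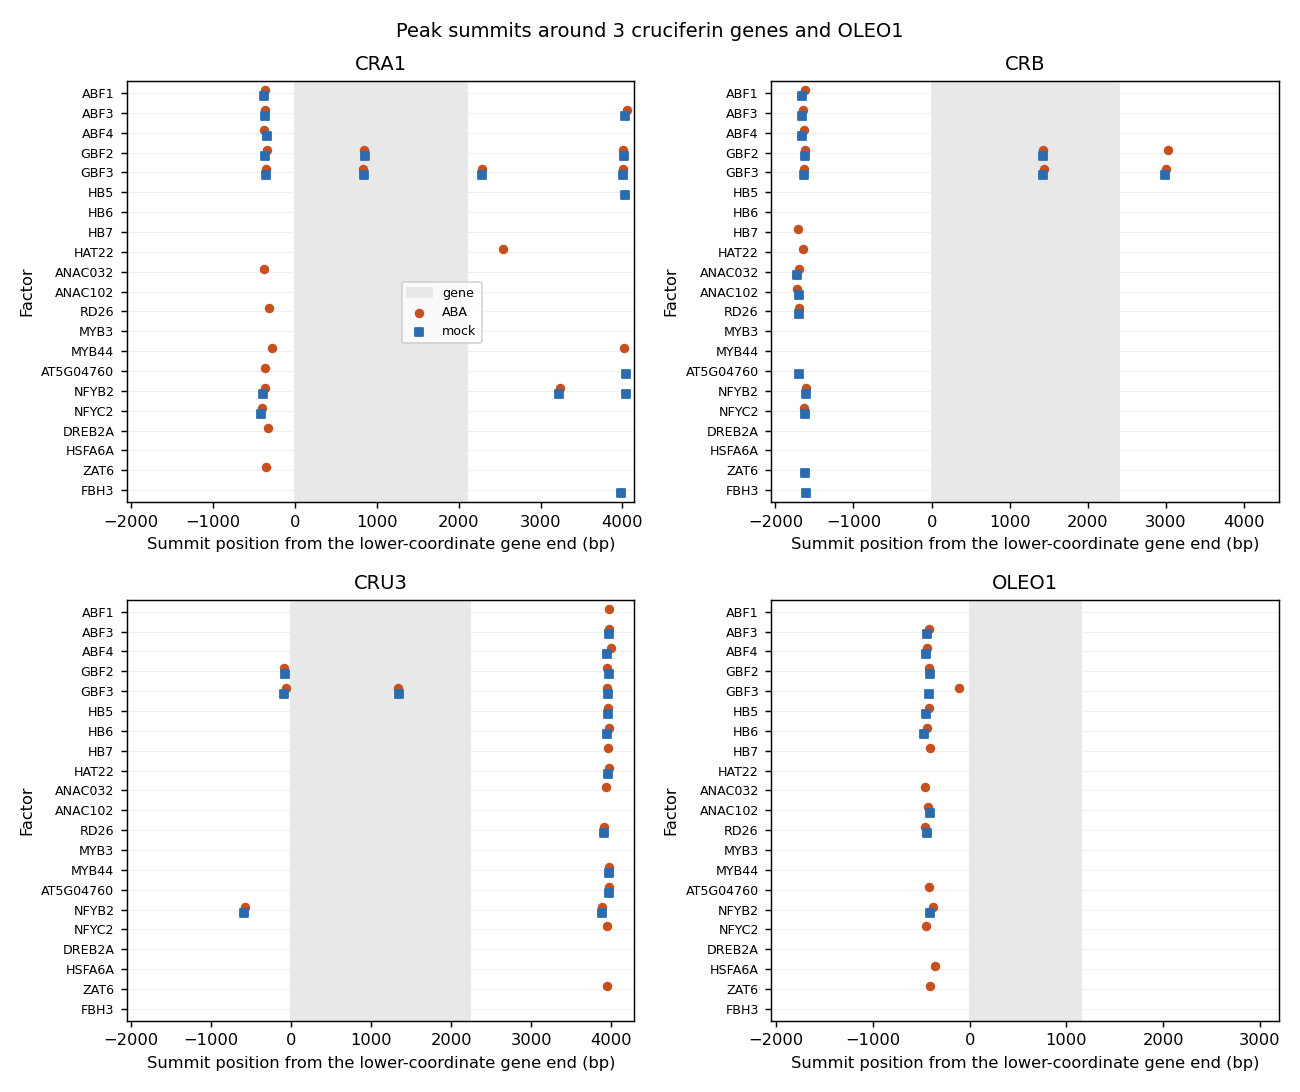
Each point is a peak summit in the ABA list (circle) or the mock list (square) of a factor (rows), placed by its distance in bp from the lower-coordinate end of CRA1, CRB, CRU3 or OLEO1, with the gene shaded. Summits of many factors stack at 1 position outside each gene, and those inside the 3 cruciferin genes belong to GBF2 and GBF3.

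Inside the cruciferin genes the lists held summits of GBF3 and GBF2 and of no other factor. GBF3 had a summit inside all 3 genes in both treatments. Its fold enrichment inside CRA1 was 3.98 under ABA and 3.22 under mock, inside CRB 4.37 and 3.90, and inside CRU3 3.88 and 3.40. The summits of GBF2 and GBF3 fell within a stretch of 14 bp inside CRA1 (GBF2 had 2.34 under ABA and 2.04 under mock) and of 12 bp inside CRB (2.37 and 2.21). GBF2 had none inside CRU3. The peak of GBF3 inside CRB under ABA was at rank 2606 of 16320. GBF3 and GBF2 also had peaks 588 to 626 bp beyond the higher end of CRB, nearer to the neighbouring gene AT1G03890 (426 to 464 bp). GBF3 had others at 186 to 187 bp from the higher end of CRA1. Summits of GBF3 inside genes without other factors are common in these lists. Of 6439 GBF3 summits inside genes under ABA, 38.4% had no summit of a factor other than GBF2 and GBF3 within 150 bp in any list. Under mock it was 29.2% of 5266. For GBF2 the numbers were 457 of 3640 under ABA and 428 of 3581 under mock.

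The 2S albumin genes SESA1 to SESA4 stand in a row on chromosome 4, and had 0 to 3 factors in each treatment. SESA1 had 3 factors in each treatment. GBF3 was found 214 bp from it under ABA (fold enrichment 2.31, rank 13376 of 16320) and 211 bp from it under mock (2.11, rank 12552 of 14247). At the same site, 143 to 145 bp from the gene, HB5 had a peak under mock alone (2.50, rank 4768 of 10026) and GBF2 had another (1.99, rank 9296 of 10329). Under ABA alone NFYB2 (4.14) and AT5G04760 (1.97) had summits 872 and 955 bp away, inside the neighbouring gene AT4G27130. These peaks were low in their lists, with a median rank at 88.1% of the list length over 7 summits, where 100% is the weakest peak.

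SESA2 was counted for 1 factor, GBF3 under ABA, through a peak 1135 bp from it that lay 175 bp from SESA1 and was counted for that gene as well (2.09, rank 15833 of 16320). The nearest summit to SESA3 in any list was 3590 bp away, and that to SESA4 was 4576 bp away. No base of any peak lay within 2000 bp of either gene. The stretch without a summit was 10653 bp long, and 1344 of 299920 gaps between neighbouring summits (0.448%) were at least as long. Of 27444 protein-coding genes, 3316 had no factor in either treatment. SESA1 to SESA4 are close paralogs, and the handling of reads that map to several copies is not stated, so the low numbers of these 4 genes are uncertain.

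OLEO1, which encodes the main oleosin of the seed, had 15 factors under ABA and 9 under mock, and all 9 mock factors were found under ABA too. Its main site spanned 115 bp (chromosome 4, 12899960 to 12900074), 356 to 470 bp from the gene on the lower side, and held 23 of the 24 summits. All 23 lay inside the neighbouring gene PMSR4, a methionine sulfoxide reductase gene. The 6 factors found under ABA alone were HB7, ANAC032, AT5G04760, NFYC2, ZAT6 and HSFA6A. The peak of the heat shock factor HSFA6A (12899399 to 12900397) had a fold enrichment of 3.87 and a −log10 p of 78.01, and stood at rank 13 of the 1861 peaks of that list. At 0.699% of the list length, no other peak at the 10 genes stood higher in its list. The mock list of HSFA6A holds 32 peaks.

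The other OLEO1 peaks ranked from 22.6% (RD26 under ABA) to 85.7% (NFYC2 under ABA) of the list length. NFYB2 had a fold enrichment of 5.63 under ABA (rank 5657 of 18096) and 3.74 under mock (rank 6077 of 14814). ABF3 had 2.54 under ABA (rank 4881 of 11273) and 2.24 under mock (rank 5794 of 9243), and ABF4 had 2.28 (rank 5180 of 8774) and 2.06 (rank 4991 of 6267). ABF1, whose peak at CRA1 was among its stronger ones, had none at OLEO1 in either treatment. RD26 had 2.68 under ABA (rank 2668 of 11825) and 2.48 under mock. The summit of GBF3 lay 419 bp from OLEO1 under mock (3.06), inside PMSR4, and 111 bp from it under ABA (3.30), outside both genes.

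LEC1 had 4 factors under ABA and 2 under mock, and 28.9% and 27.0% of all genes had fewer. The NF-Y subunits NFYB2 and NFYC2 were found in both treatments, and all of the mock summits lay inside LEC1. NFYB2 had a fold enrichment of 4.36 inside the gene under ABA (rank 10055 of 18096) and 3.25 under mock (rank 9086 of 14814). NFYC2 had 2.85 (rank 4478 of 8390) and 2.41 (rank 4731 of 5781). These summits and those of ABF3 (1.91) and MYB44 (1.98), found under ABA alone, lay in a stretch of 119 bp (chromosome 1, 7728530 to 7728648). NFYB2 had a further weak peak 747 bp beyond the higher end under ABA. No GBF3 summit lay at LEC1, although 65.8% of all genes had one under ABA.

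FUS3 had 2 factors under ABA and 1 under mock. GBF3 had a summit 1138 bp from the higher end under ABA (2.49) and 1118 bp from it under mock (2.29), and another inside FUS3 under ABA alone (2.46, rank 12620 of 16320). RD26 had a summit inside FUS3 under ABA alone (2.06, rank 7779 of 11825). No NF-Y subunit was found at FUS3 in either treatment, while NFYB2 was placed at 74.0% and 65.7% of all genes. All of the summits at LEC1 and FUS3 were nearer to these genes than to any other.

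**Figure D4:**
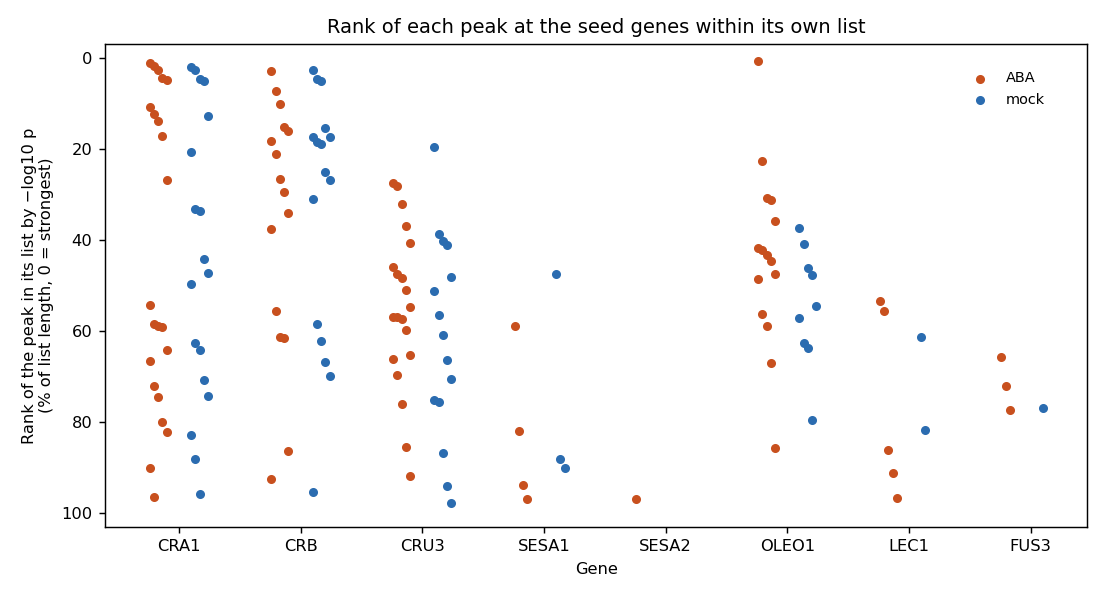
Each point is a peak at a seed gene, and the vertical axis gives its rank by −log10 p as a percentage of the length of its own list, with 0 for the strongest peak at the top, for the ABA and the mock lists. SESA3 and SESA4 have no peak and are left out. Peaks near the top are found at CRA1, CRB and, for HSFA6A, at OLEO1, and no peak at LEC1 or FUS3 stands above 53.4%.

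By factor, GBF3 was at 7 of the 10 seed genes under ABA (65.8% of all genes) and 6 under mock (61.8%), and NFYB2 at 6 and 5 (74.0% and 65.7%). ABF3 was at 5 and 4 (54.0% and 45.1%), ABF4 at 4 and 4 (43.4% and 33.4%) and ABF1 at 3 and 2 (41.9% and 14.6%). RD26 was at 5 and 3 (55.9% and 37.5%) and NFYC2 at 5 and 3 (43.4% and 32.4%). GBF2 was at 4 and 5 (50.1% and 48.7%) and AT5G04760 at 4 and 3 (53.6% and 45.5%). These counts of 10 genes stood near the share of all genes. ANAC032 was at 4 and 1 (39.3% and 4.58%) and ANAC102 at 2 and 2 (25.3% and 15.5%). MYB44 was at 3 and 1 (52.0% and 34.0%) and ZAT6 at 3 and 1 (52.6% and 24.0%). FBH3 was at 0 under ABA and 2 under mock, in lists that reach 1.24% and 6.5% of all genes. Among the homeodomain-leucine zipper proteins, HB6 was at 2 and 2 (53.0% and 46.0%), HB5 at 2 and 4 (44.5% and 46.0%), HAT22 at 3 and 1 (43.0% and 34.9%), and HB7 at 3 and 0 (61.1% and 19.1%). MYB3, a repressor of phenylpropanoid genes, was at none, where 30.8% and 17.5% of all genes had it. Each of DREB2A and HSFA6A was at 1 gene under ABA, CRA1 and OLEO1, where 9.14% and 11.1% of all genes had them, and at none under mock (0.0875% and 0.27%).

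ABA was compared with mock by counting, for each gene, the factors found under ABA alone and under mock alone. At the 10 genes 42 pairs of factor and gene were found in both treatments, 25 under ABA alone and 7 under mock alone. Over all genes, of 576324 possible pairs, 165535 were found in both, 82934 under ABA alone and 8192 under mock alone. More factors under ABA were found at 6 genes (75.5% of all genes), fewer at CRB, and equal numbers at SESA1, SESA3 and SESA4. OLEO1 gained 6 factors and lost none (two-sided exact sign test, p = 0.0312, 0.198 after Benjamini-Hochberg adjustment over 24128 genes with any factor). CRU3 gained 5 and lost none (exact sign test, p = 0.0625, adjusted p = 0.248), and CRA1 gained 6 and lost 2 (exact sign test, p = 0.289, adjusted p = 0.557). With summits within 1000 bp alone, CRA1 had 14 factors under ABA and 7 under mock (exact sign test, unadjusted p = 0.0156), and no gene passed after adjustment (lowest adjusted p = 0.169). No difference between treatments passed the test at any of the 10 genes. With 5 or fewer factors found in 1 treatment alone, the exact sign test cannot give a p below 0.0625. Every seed gene other than CRA1 and OLEO1 had so few, so the test could not have called a change there even before adjustment. OLEO1, at 6 gained and none lost, had the lowest p that 6 factors allow, and its adjusted p was still 0.198. CRA1 had 8 factors found in 1 treatment alone, for which the lowest p of the exact sign test is 0.00781. A gene with that p had an adjusted p of 0.157. After adjustment the test could thus have called none of the 10 genes.

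None of the 24128 genes passed after adjustment (exact sign test, lowest adjusted p = 0.149), while 3890 had an unadjusted p below 0.05. Of these, 3885 had more factors under ABA, which is 16.1% of the genes tested, and 1 of the 10 seed genes was among them. The ABA list is the longer one for all factors other than HB5 and FBH3. With both lists of a factor reduced to the length of the shorter one, the seed genes had 46 pairs under ABA and 48 under mock, and over all genes 30.5% and 29.8% of pairs were found. The net change was then 2 factors for OLEO1, 1 for CRA1, 0 for CRU3 and -4 for CRB.

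Most of the peaks were nearer to a neighbouring gene. Of 40 summits counted for CRA1, 9 had CRA1 as the nearest protein-coding gene, as did 4 of 32 for CRB, 6 of 35 for CRU3 and 1 of 24 for OLEO1. For LEC1 it was 7 of 7, for FUS3 4 of 4, for SESA1 5 of 7 and for SESA2 0 of 1. With each summit given to its nearest gene alone, 16 of the 210 pairs under ABA and 13 under mock remained for the 10 genes, against 26.7% and 18.4% of pairs over all genes.

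The genes of 3 other lists from the seed programme had medians close to that of all genes (9 under ABA and 5 under mock). Of 15 other storage, oil body and vicilin-like genes, 13 had a factor under ABA and 13 under mock, with a median of 10 and 5 factors. That is 86.7% in each treatment, near the 87.3% and 82.1% of all genes. AT2G25890, an oleosin family gene, had 20 and 17 factors, the 2S albumin gene SESA5 (AT5G54740) had 14 and 7, AT4G36700 had 13 and 9, AT2G18540 had 12 and 8, and AT1G03890, the cruciferin-like neighbour of CRB, had 10 and 5. SESA5 thus had more factors than SESA1 to SESA4 taken singly. OLEO2 and HSD1 had none in either treatment; these genes were chosen after their values were seen.

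Of 13 other regulators of the embryo or of seed genes, 11 had a factor under ABA and 10 under mock, with a median of 9 and 6. These are 84.6% and 76.9%, against 87.3% and 82.1% of all genes. MYB118 had 20 and 16 factors, BZIP53 had 19 and 16, and DOG1, a gene of seed dormancy, had 17 and 13. WRI1, the AP2 factor that drives oil synthesis, and BZIP25 each had 17 and 12, and ABI3 had 15 and 9. LEC2, the B3 partner of FUS3, chosen after its values were seen, had 4 and 3.

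Of 13 repressors of the seed programme, 12 had a factor in each treatment, with a median of 8 under ABA and 4 under mock. The share was 92.3% in each treatment, against 87.3% and 82.1% of all genes. VAL2 (listed as HSL1) had 18 factors in each treatment, of which 17 were found in both. VAL3 had 18 and 17, while VAL1 (listed as HSI2), chosen after its values were seen, had 7 and 6. The Polycomb gene CLF had 15 and 7, ASIL1 had 15 and 8, and PKL, which encodes PICKLE, had 12 and 6. VRN2 had 9 and 3 and SWN had 8 and 3. CLF gained 8 factors and lost none, the largest net gain in these lists (exact sign test, p = 0.00781, adjusted p = 0.157). No gene of the 3 lists passed the test after adjustment.

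**Figure D5:**
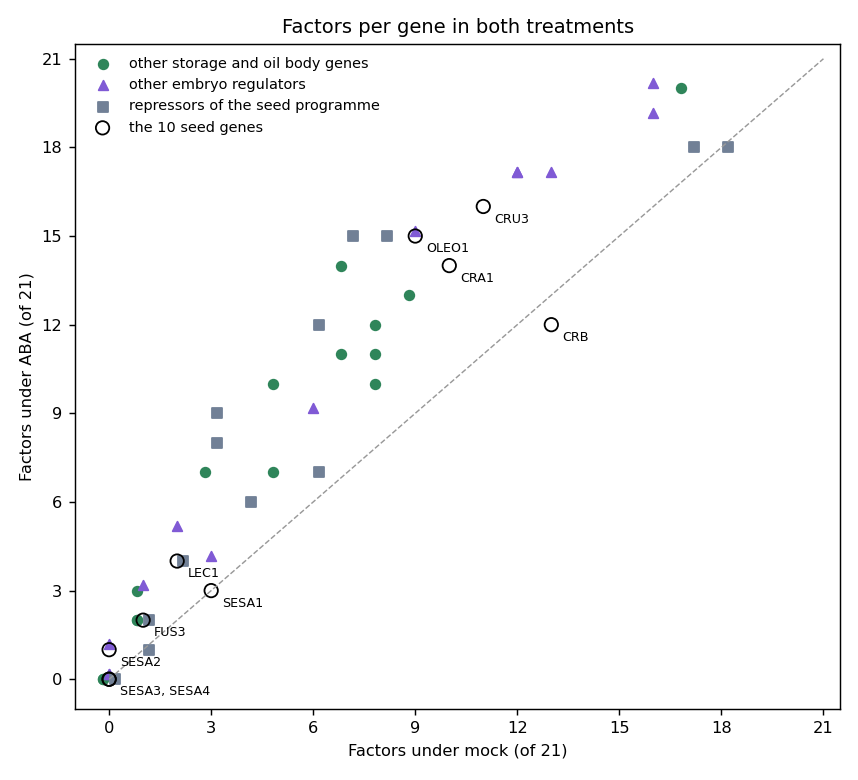
Points give the number of factors (of 21) under mock and under ABA for the 10 seed genes (open circles, named) and for the genes of 3 other seed lists, with small offsets between the lists so that equal values stay visible. The dashed line marks equal numbers, and CRB is the single named gene below it.

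The set of lists in which a gene was found was compared over all 42 lists by the Jaccard index (shared lists over lists of either gene), for the 6 seed genes found in at least 5 lists. CRU3 had an index of 1.0 with AT1G03520, at 27 shared lists, and 0.964 with ARR11 and BLH7, which are named by gene code from 8 genes tied at that value. OLEO1 had 0.923 with SRS2 (AT4G25120), which by gene code stands next to PMSR4 (AT4G25130) and shares all 24 lists of OLEO1. It had 1.0 with its neighbours PMSR4 and AT4G25150, and SESA1 had 1.0 with its neighbour AT4G27130. These neighbours are counted for the same peaks. SESA1 also had 0.833 with mMDH1 and 0.714 with ACR4, 1 of 5 genes tied there. CRA1 had 0.852 with AT3G12970, 0.840 with AT1G76660 and 0.821 with AT3G53611 (1 of 2 tied), and CRB had 0.828 with AT3G63220, 0.821 with AT5G67430 and 0.815 with AT3G49270. LEC1, found in 6 lists, had 0.833 with HEB1, AT2G47310 and AT3G04990. Among the seed genes themselves the highest index was 0.700, for CRU3 and OLEO1, and the cruciferin genes had 0.633 (CRA1 and CRB), 0.645 (CRA1 and CRU3) and 0.529 (CRB and CRU3).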

How the data were processed

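The deposited files are 42 narrowPeak lists. The build is TAIR10, and the tools named are MACS2 2.0.10 and Bowtie 0.12.7, without their roles, per the submitters' processing notes. Replicates were pooled by the authors, per the names of peaks and files, and no −log10 p is below 16. The lists of NFYB2 (19.25 under ABA, 17.58 under mock) and of GBF3 under ABA (17.98) have higher minima, so the treatments of these factors meet unlike cutoffs. The fold enrichment (a ratio) and −log10 p of each peak are the authors' deposited values, and were used only to describe and rank peaks within a list.

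Summits were placed with the gene table of assembly TAIR10.1, which has no strand and whose gene coordinates are not printed. All 42 lists have a peak over the tagged gene, and 33.9% of summits lay inside genes, against 37.5% and 37.4% after shifts of 100 bp. Genome sequence was not used here, so planned motif searches were not run.

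The sign test (scipy 1.17.1, Python 3.11.15) pairs the treatments of a factor; factors are not independent, and p-values measure no spread between libraries. It was tested on simulated data with independent factors and, for unchanged genes, equal rates in both treatments. These lists have neither, so the simulation does not show how the test behaves on them. Whether the libraries of a group are separate cultures is not stated. The members and lists were chosen with earlier results of these data known. Named genes followed a rule: all 10 members, the 4 genes of each list with the most factors under ABA, any with a net change of at least 5, and the 3 most alike genes of members found in at least 5 lists. The joining of summits within 150 bp and the overlap of pairs found in 1 treatment were chosen after the data were seen. Alternatives were shorter distances, a stricter −log10 p, other rules of overlap, list length, width, and other sets of factors.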

Additional observations from a re-analysis of the deposited data

How the results depend on the processing

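The numbers of seed genes with a factor stayed at 7 or 8 of 10 under ABA and 6 to 8 under mock in all 10 alternatives. Over all genes the share was 70.5% to 89.5% under ABA and 63.2% to 84.8% under mock, so these counts stood near it. No gene among all protein-coding genes passed the sign test after adjustment in any alternative. The number of factor and gene pairs depended on the rule. By the main rule it was 67 under ABA and 49 under mock, of 210 possible pairs. With summits within 1000 bp it was 43 and 26 (34.7% and 23.7% of pairs over all genes), and within 500 bp 40 and 25 (28.2% and 19.1%). It was 43 and 26 with a −log10 p of at least 32 (27.4% and 17.4%). With the nearest gene alone it was 16 and 13 (26.7% and 18.4%). It was 78 and 56 with any base of a peak within 2000 bp (47.6% and 33.5%), and 46 and 48 with lists of equal length (30.5% and 29.8%). With the family as the unit, 10 families take the place of 21 factors, so fewer pairs than 210 are possible. The pairs of family and gene were then 35 and 25, against 45.4% and 33.7% of such pairs over all genes. SESA1, with a net change of 0, had -2 within 500 bp and with the nearest gene alone, -1 with lists of equal length and without GBF3 and NFYB2, and 1 with the family as the unit. No paired analysis was possible because each list pools its replicates, so libraries could be neither paired nor left out; the sign test pairs the lists of a factor. Read depth is unknown, so a gene without a peak is one without a peak at the authors' threshold, and not shown to be unbound.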

Other observations

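Values of some genes of the 3 seed lists were not part of the rule for named genes and were chosen after they were seen. The oil body genes differed among themselves: OLEO3 had 10 factors under ABA and 8 under mock, OLEO4 had 2 and 1, and the caleosin gene ATS1 had 2 and 1. PAP85, a vicilin-like storage protein gene, had 7 and 3. Among the regulators, NF-YB6, the closest relative of LEC1, had 9 and 6 factors, AGL15 had 3 and 1, DPBF2 had 1 and 0, and BBM and MYB115 had none in either treatment. FIE, a Polycomb gene, had none either, while MSI1 had 6 and 4 and EMF2 had 4 and 2.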
